A study of Homo sapiens with 12 samples.

Results

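Long noncoding RNAs are transcripts with no long open reading frame, and those examined here are the ones that gave a signal on expression arrays of U937 cells, a human line of monocytic leukaemia origin. Genes were taken whose symbol is LINC or SNHG followed by a number, or is NEAT1, MALAT1, GAS5, CYTOR, MIR155HG, MIR22HG, MEG3 or DANCR, and that had a probe set annotated to that symbol alone. The probe set whose mean log2(signal + 62.5) over the 12 arrays was highest stood for its gene, which was kept at a mean of 7.85 or more, a signal of 168.9. Of 856 such genes 303 were kept and 553 lay under the threshold. The 303 comprise 290 LINC genes (of 840), 8 SNHG genes (of 11) and MALAT1, GAS5, CYTOR, MEG3 and DANCR, among 13959 genes tested of 19775 with such a probe set. NEAT1 was not kept because its 9 probe sets each carry several symbols, and MIR155HG and MIR22HG each have only 1 probe set, also of several symbols. A further 13 SNHG symbols occur only on probe sets of several symbols.

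The cells had been electroporated with pEGFP-PRWT, pEGFP-PR2VR or, as the control, pEGFP, and were sorted for green fluorescence 6 h or 9 h later. The fusion plasmids carry PML-RARA, the fusion protein of acute promyelocytic leukaemia, the PRWT plasmid as wild type. The series title speaks of a protease-resistant PML-RARA, while the sample characteristics call the insert of the PR2VR plasmid wild type as well, so the form of the protein in PR2VR cells is taken here from the plasmid name alone. Each of the 6 combinations of construct and time has 2 arrays, numbered 1 and 2, which gives 4 arrays per construct and 6 per time. Sample titles give the time as post infection for PRWT and PR2VR and as post transfection for GFP, and a difference in procedure could not be told apart from the difference between fusion and GFP cells. The labels do not say that the 2 numbers are separate transfections, so the p-values measure the spread between these samples only, which may be technical.

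Many long noncoding RNAs stay in the nucleus, and MALAT1 gathers in nuclear speckles with splicing factors. The SNHG genes, GAS5 and DANCR host small nucleolar RNAs in their introns: the intron is processed into a guide for the modification of ribosomal RNA, while the spliced host transcript is often removed by nonsense-mediated decay when it is translated. Several host genes begin, like ribosomal protein genes, with a run of pyrimidines at the transcription start. Most LINC genes are numbered by the order in which they were catalogued, and for many no role is known.

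The windows around the annotated starts of the genes on which the comparisons below turn were read from RefSeq (GRCh38.p14). Each runs from 250 bases before the start to 50 bases from it, on the gene's own strand, with the transcribed 50 bases in capitals. LINC02806 and SNHG17 had the higher signal in PML-RARA cells, and MALAT1 and LINC01569 the lower. MALAT1 has 2 annotated starts, of which the upstream one is shown.
LINC02806, chr1:148279018-148279317, plus strand: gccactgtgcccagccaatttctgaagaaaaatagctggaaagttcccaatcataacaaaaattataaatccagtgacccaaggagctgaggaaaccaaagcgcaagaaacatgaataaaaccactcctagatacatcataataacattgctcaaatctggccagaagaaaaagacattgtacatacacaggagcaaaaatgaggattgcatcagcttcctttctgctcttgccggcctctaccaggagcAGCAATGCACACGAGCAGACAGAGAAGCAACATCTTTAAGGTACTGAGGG
SNHG17, chr20:38435279-38435578, minus strand: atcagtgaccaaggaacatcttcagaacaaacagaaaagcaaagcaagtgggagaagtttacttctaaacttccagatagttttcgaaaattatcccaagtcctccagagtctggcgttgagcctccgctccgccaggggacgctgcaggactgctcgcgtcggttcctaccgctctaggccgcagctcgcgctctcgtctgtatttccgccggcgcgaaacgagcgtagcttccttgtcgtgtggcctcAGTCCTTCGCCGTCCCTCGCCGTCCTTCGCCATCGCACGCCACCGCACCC
MALAT1, chr11:65497488-65497787, plus strand: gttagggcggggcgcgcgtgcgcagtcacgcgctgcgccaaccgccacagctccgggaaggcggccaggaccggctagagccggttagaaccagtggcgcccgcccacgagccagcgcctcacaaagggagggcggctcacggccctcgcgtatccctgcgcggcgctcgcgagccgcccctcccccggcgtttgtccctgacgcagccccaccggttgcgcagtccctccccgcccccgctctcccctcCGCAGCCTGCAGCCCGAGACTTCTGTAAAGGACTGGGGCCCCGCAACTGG
LINC01569, chr16:4253740-4254039, minus strand: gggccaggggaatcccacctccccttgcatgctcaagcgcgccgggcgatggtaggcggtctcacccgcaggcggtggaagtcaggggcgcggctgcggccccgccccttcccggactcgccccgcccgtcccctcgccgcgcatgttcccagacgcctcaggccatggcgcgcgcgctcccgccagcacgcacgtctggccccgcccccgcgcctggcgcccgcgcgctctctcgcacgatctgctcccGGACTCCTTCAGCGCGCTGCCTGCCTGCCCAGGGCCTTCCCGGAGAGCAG

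The LINC02806 window is 43.0% G and C, against 57.3% for SNHG17, 73.7% for MALAT1 and 76.0% for LINC01569, and against a median of 58.7% over all 35116 windows of the table. Both strands were searched for AGGTCA, the half-site bound by retinoic acid receptors, and for GAGGAAGT, the core bound by the myeloid factor PU.1. Neither was found in these windows, in the second MALAT1 window or in those of DANCR and LINC02256. Over all windows AGGTCA occurs in 13.8% and GAGGAAGT in 2.6%. Of the 250 windows of 221 kept genes 40 hold AGGTCA (16.0%) and 11 hold GAGGAAGT (4.4%), and the GAS5 window holds 1 AGGTCA. LINC00528, described below, is named only.

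The host genes differ in the bases at the annotated start. For 5 of them the 20 bases before the annotated start and the 20 from it are shown, with the first 10 transcribed bases in capitals.
SNHG32, chr6:31834896-31834935, plus strand: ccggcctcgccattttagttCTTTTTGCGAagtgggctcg
SNHG19, chr16:2155339-2155378, minus strand: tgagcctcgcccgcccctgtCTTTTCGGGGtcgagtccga
SNHG17, chr20:38435309-38435348, minus strand: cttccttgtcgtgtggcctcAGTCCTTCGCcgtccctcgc
GAS5, chr1:173869026-173869065, minus strand: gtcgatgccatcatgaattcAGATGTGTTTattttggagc
DANCR, chr4:52712374-52712413, plus strand: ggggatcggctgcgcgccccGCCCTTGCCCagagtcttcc
SNHG32 and SNHG19 begin with a C and a run of 6 pyrimidines in all, whereas the annotated starts of SNHG17, GAS5 and DANCR are purines. SNHG33, not shown, has 2 annotated starts, with runs of 1 and 0 pyrimidines. A single annotated start was read for each of the 5 shown, and the starts used in these cells were not measured. A start of C followed by 4 more pyrimidines occurs in 4.1% of all windows and in 7 of the 250 windows of kept genes (2.8%).

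Most kept genes gave a low signal. Their median log2 level was 8.43, a signal of 282.7, against 10.66 and 1555.2 for all genes tested, with quartiles of 8.08 and 9.07. A mean of 9 or more was reached by 81 of the 303 (26.7%), against 72.2% of all genes tested, and a mean of 12 or more by 9 (3.0%), against 30.3%. The level chose the genes, so these values describe them and were not tested. The 9 probe sets for BioB, BioC, BioDn and CreX, here called the bacterial controls, have no target in human RNA. Whether transcripts for these 9 were added to the samples was not established, so their range is a reference and not a measured background. They read between 4.4 and 616.0, with 37.7 as the median. The spiked-in Lys control described below is not among them. For 222 genes the mean was under 9 (a signal of 449.5), which lies below the highest control reading of 616.0. That reading is an extreme of single arrays, and means of the controls were not compared. The comparison therefore does not place these genes at background, and the median control reading of 37.7 lay under the threshold signal of 168.9. Single arrays of these genes can exceed 616.0, as LINC00880 did at 803.5. The signal of a probe set depends on its probes, so the order of genes by signal is not an order of RNA amounts.

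**Figure D1:**
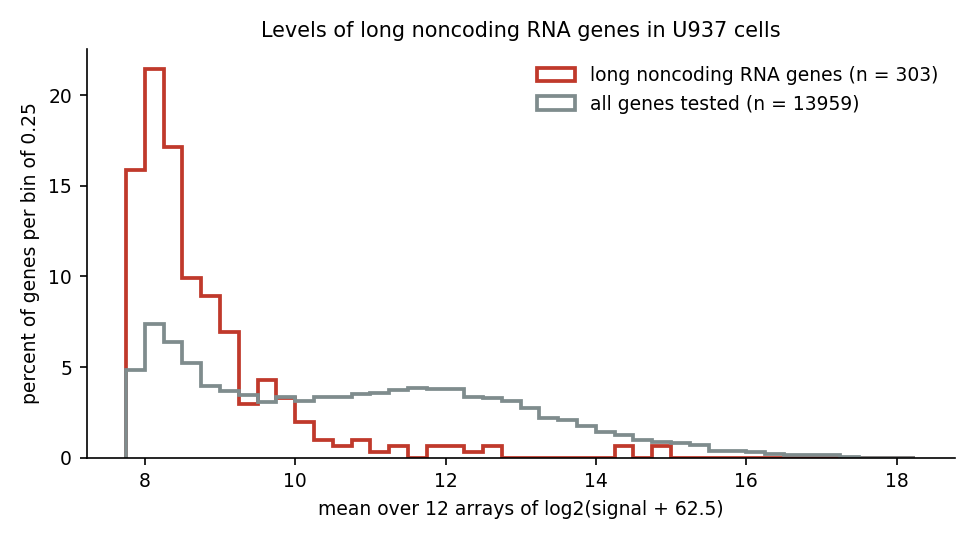
Share of genes (vertical axis, percent per bin of 0.25) by mean log2(signal + 62.5) over 12 arrays (horizontal axis) for the 303 long noncoding RNA genes and for all 13959 genes tested. The long noncoding RNA genes crowd near the threshold of 7.85, with 9.2% at 10 or more, against 58.6% of all genes tested.

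Just inside the threshold stood LINC00880, LINC01093 and LINC02270, at means of 7.85 to 7.86, and just outside it LINC01159, LINC02092 and LINC01214, at 7.84 to 7.85. LINC00880 ranged from 24.7 to 803.5 over the 12 arrays and LINC01159 from 25.4 to 445.2. Genes on the 2 sides of the threshold therefore had overlapping signals.

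Apart from the level, the kept genes share few features. RefSeq calls 301 of them lncRNA, and the other 2 could not be matched. The gene table gives a position for 301, and 29 of these overlap a protein-coding gene. Chromosome 1 holds 42. A single probe set represents 199 of the genes, and the second probe set also reached the threshold in 44 of the 104 with several. Probe sets whose name ends in _at, designed to detect 1 transcript, measure 250 of the 303 but only 1 of the 9 with the highest signals, and the other 8 end in _s_at or _x_at, which can detect further transcripts. The shares of these endings over all genes tested were not counted, so the counts do not set these genes apart from others.

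Among the host genes SNHG32, which carries C/D box small nucleolar RNAs, had the highest mean level of 14.81. Its signal was 34100, 59150, 30062 and 22884 in PRWT cells (in the order 6 h number 1, 6 h number 2, 9 h number 1 and 9 h number 2, used throughout), 25073, 44694, 21647 and 19741 in PR2VR cells, and 25284, 44549, 22319 and 18551 in GFP cells. In each construct the 6 h number 2 array was the highest and the constructs overlapped. Between arrays of the same time and number, PRWT minus GFP was 0.43, 0.41, 0.43 and 0.30 in log2. PR2VR minus GFP was -0.01, 0.005, -0.04 and 0.09, and PR2VR minus PRWT was -0.44, -0.40, -0.47 and -0.21. SNHG32 did not pass in the main fits of these comparisons below, with or without pairing of such arrays. SNHG33 (mean 12.51) ranged from 3775 to 9921, SNHG19 (10.40) from 894.6 to 2314, and the level of SNHG17 was 14.25. The other 4, SNHG22, SNHG10, SNHG28 and SNHG4, had means of 8.45, 8.38, 8.03 and 8.02 and signals between 34.7 and 802.8, all within the range of the bacterial controls except SNHG10 on the GFP 9 h number 2 array.

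Of the LINC genes LINC00926, LINC00520 and LINC00621 had the highest levels, 14.91, 12.59 and 12.37. LINC00926 had signals of 53895, 57178, 50311 and 7464 in PRWT cells, 18879, 51434, 49406 and 11842 in PR2VR cells, and 60165, 47356, 40465 and 9218 in GFP cells. In all constructs the 9 h number 2 array was the lowest. LINC00520 ranged from 1949 to 16950, with the highest value on a 9 h number 2 array, and LINC00621 from 2976 to 7815.

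These 3 arrays, 9 h number 2 of each construct, stood apart before any comparison was made. On them the spiked-in Lys control read 86051 to 121536, against at most 297.9 on the other 9, and the ratio of the 3' to the 5' GAPDH probe sets, a measure of RNA length, was 2.21 to 2.75, against 3.82 to 12.93. The median level of the kept genes was 9.06 to 9.19 on them and 8.23 to 8.64 on the other 9, while that of all genes tested was 10.73 to 10.81 and 10.45 to 10.75. On all 3 of these arrays 66 kept genes (21.8%) exceeded each of the other 9 arrays and 2 (LINC00926 and LINC00205, singled out after their values were seen) lay below them, against 12.5% and 6.95% of all genes tested. Among genes with a mean under 9 the shares above were 23.9% of kept genes and 23.6% of all. The 3 arrays belong to 1 per construct, so they are balanced between constructs but not between times. Among the other 9, the GAPDH ratio was 8.14 to 12.93 on the 9 h number 1 arrays and 3.82 to 8.28 on the 6 h arrays. Both 9 h sets thus differed from most 6 h arrays in this ratio, in opposite directions.

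**Figure D2:**
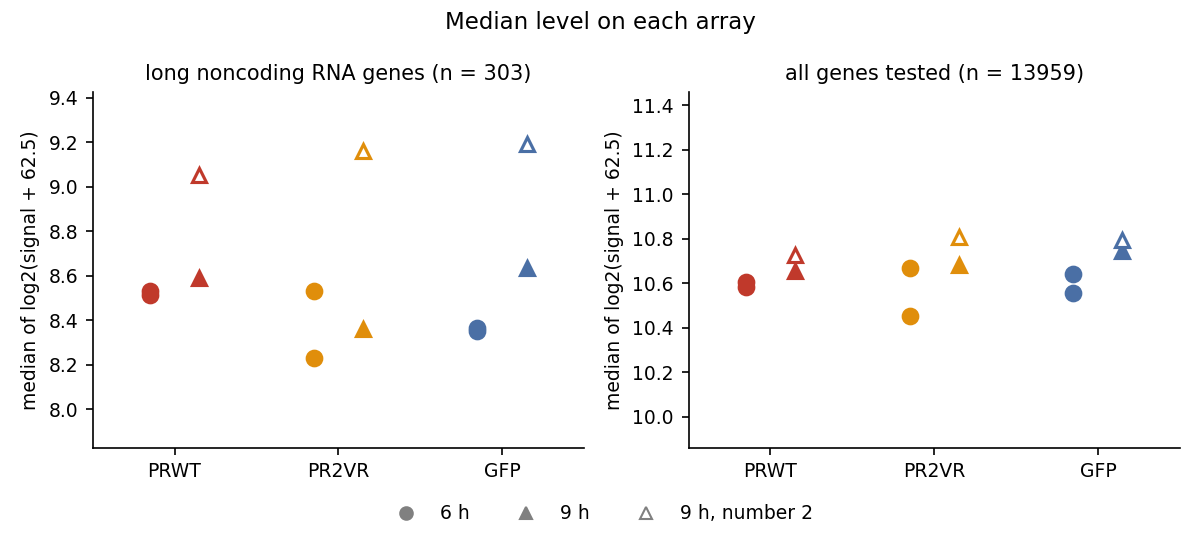
Median log2(signal + 62.5) on each array (vertical axis, the same span in both panels) for the 303 long noncoding RNA genes and for all 13959 genes tested, by construct, with circles for 6 h and triangles for 9 h. The open triangles, the 9 h number 2 arrays, stand at 9.06 to 9.19 for the long noncoding RNA genes, above the other 9 at 8.23 to 8.64.

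The labels were checked with RARA, whose 3' part the fusion carries. Its signal was 58985, 11971, 32912 and 54611 in PRWT cells, 36892, 9281, 29626 and 41097 in PR2VR cells, and 63.4, 48.2, 63.4 and 309.2 in GFP cells, with no overlap. The log2 differences from GFP were 7.72 ± 0.54 in PRWT and 7.32 ± 0.54 in PR2VR cells (limma, Benjamini-Hochberg adjusted p = 3.5e-05 and 6.8e-05), and PR2VR minus PRWT was -0.40 ± 0.54 (adjusted p = 1.0). PML differed by 0.11 ± 0.28 and 0.34 ± 0.28 from GFP and did not pass. Of the markers measured, 9 of 11 for monocytic cells reached the threshold, against 2 of 6 for T cells, 4 of 4 for B cells, 2 of 3 for erythroid cells and 4 of 6 for epithelial cells and fibroblasts. The monocytic LYZ and ITGB2 stood at 12.96 and 13.16 and MPO at 8.41, but PAX5, a B cell marker, and EPOR, an erythroid one, stood at 12.21 and 12.09 (examples chosen after their values were seen), so these levels do not settle the cell type. None of these lists' genes passed in any of the 5 comparisons below.

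The first question was which long noncoding RNAs differed once PML-RARA was present. Cells of both fusion constructs were set against GFP cells, with equal weight on 6 h and 9 h. No long noncoding RNA gene passed (limma, adjusted p under 0.05 over all 13959 genes), and 1 gene did in all, 0.00716%, which is RARA. The same counts held at 6 h alone and at 9 h alone. At an unadjusted p under 0.05, 7 of the 303 were higher (2.31%, against 1.64% of all genes tested) and 7 lower (2.31%, against 1.5%), and with the block described next 8 were higher and 13 lower (2.64% and 4.29%, against 4.47% and 3.93%). With the time and replicate number as a block, which pairs the arrays of different constructs, 1 of the 303 passed (LINC02806), against 44 of all genes tested, 0.315%. In such pooled cells a change in the share of cells that express a gene cannot be told apart from a change per cell.

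LINC02806 had the largest positive difference of the 303 genes. Its signal was 851, 462, 707 and 1152 in PRWT cells and 1776, 681, 1118 and 1060 in PR2VR cells, against 384, 216, 355 and 400 in GFP cells. All 8 fusion arrays lay above all 4 GFP arrays. The log2 difference was 1.31 ± 0.33 (adjusted p = 0.65), and with the block 1.31 ± 0.23 (adjusted p = 0.048), with fusion cells higher in 4 of 4 sets. Against GFP it was 1.06 ± 0.38 in PRWT cells and 1.56 ± 0.38 in PR2VR cells (adjusted p with the block 0.37 and 0.044). A second probe set of LINC02806 gave 1.15 ± 0.29 in fusion against GFP cells (adjusted p with the block 0.084 over probe sets), in the same direction. The blocked calls of LINC02806 against GFP held without PR2VR 6 h number 1 and without PR2VR 6 h number 2 (adjusted p = 0.025 and 0.011 for both constructs together). They were lost when any other single array was left out (0.11 to 0.47 for both constructs and 0.065 to 0.36 for PR2VR), and without the 3 arrays of 9 h number 2 the difference was 1.27 (adjusted p with the block 0.99). No role is given here for LINC02806, which lies between NBPF11 and PPIAL4G, members of duplicated gene families, on chromosome 1, and neither neighbour was tested.

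SNHG17, the host of small nucleolar RNAs on chromosome 20, was the other gene among the 5 with the smallest p that had the higher signal in fusion cells. It had 22914, 25379, 23839 and 16443 in PRWT cells and 37472, 20665, 22097 and 19885 in PR2VR cells, against 17945, 14592, 13675 and 10763 in GFP cells. The PR2VR arrays all exceeded the GFP arrays, while 1 PRWT array lay among them. The log2 difference of fusion from GFP cells was 0.71 ± 0.24 (adjusted p = 1.0, and 0.16 with the block), above 0 in 4 of 4 sets, and its second probe set gave 0.27 ± 0.26. The neighbours RALGAPB and LBP differed by 0.14 ± 0.28 and 0.22 ± 0.48.

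MALAT1 had the lower signal in fusion cells. It was 34800, 28044, 30022 and 13698 in PRWT cells and 15229, 19383, 15507 and 5778 in PR2VR cells, against 46942, 44792, 28652 and 33835 in GFP cells. The PR2VR arrays all lay below the GFP arrays and PRWT overlapped GFP. The log2 difference of both constructs from GFP was -1.07 ± 0.30 (adjusted p = 0.76, and 0.093 with the block), below 0 in 4 of 4 sets. In PR2VR against GFP cells it was -1.56 ± 0.34 (adjusted p = 0.52), and with the block -1.56 ± 0.26 (adjusted p = 0.041). In PRWT cells it was -0.59 ± 0.34. The blocked call in PR2VR cells held without PR2VR 6 h number 1 or number 2 (adjusted p = 0.027 and 0.0073) and was lost without any other single array (0.061 to 0.29). Its neighbour FRMD8 differed by -0.07 ± 0.29 in fusion cells.

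**Figure D3:**
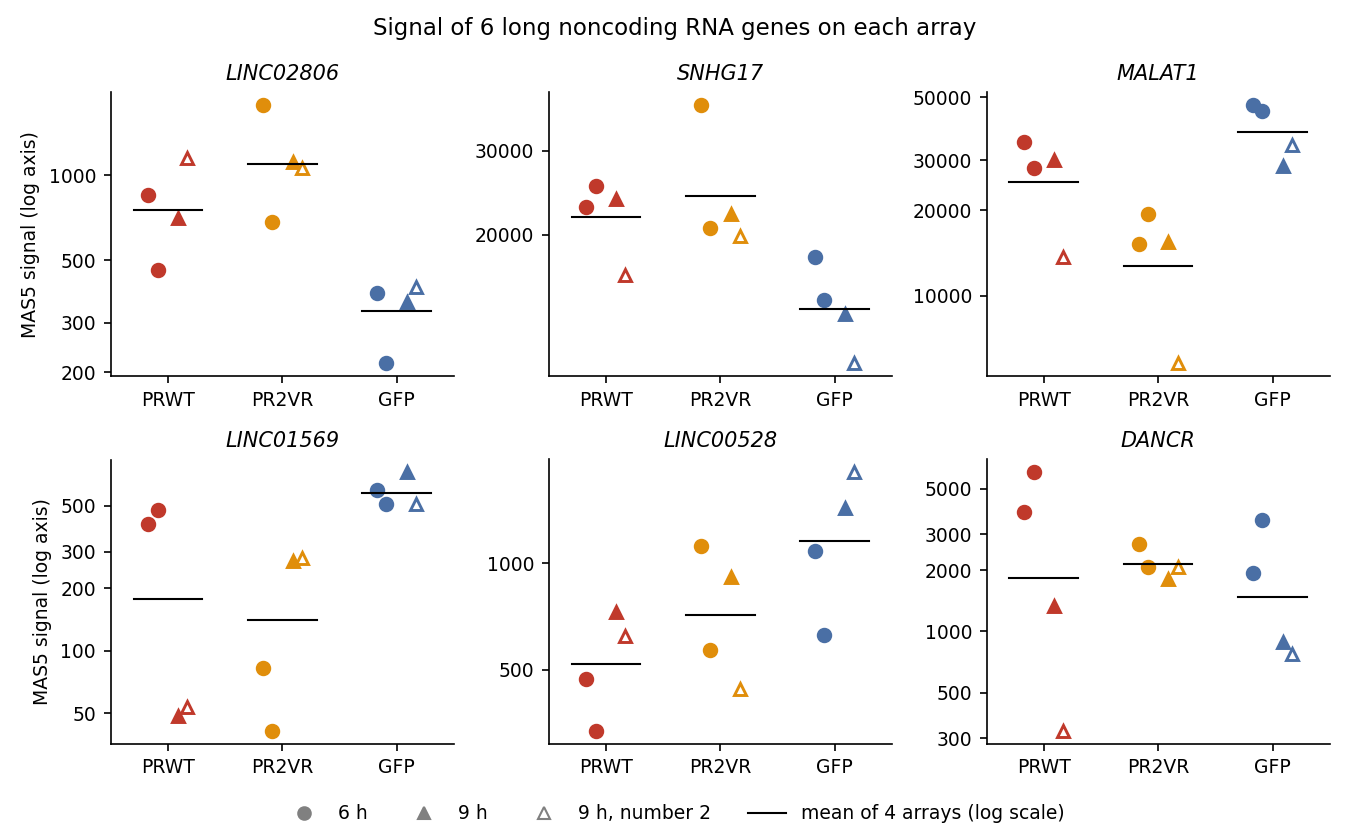
MAS5 signal (vertical log axis) of 6 long noncoding RNA genes on each of 12 arrays in PRWT, PR2VR and GFP cells, with circles for 6 h, triangles for 9 h, open triangles for 9 h number 2 and bars at the mean of the log values. The 8 fusion arrays lie above the 4 GFP arrays for LINC02806 and below them for LINC01569, and the other 4 genes overlap.

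MALAT1 is measured by 12 probe sets, and they did not give the same difference. In PR2VR against GFP cells they ranged from -1.56 ± 0.35 for the one with the highest signal to 0.28 ± 0.67 for one of intermediate signal, with 9 below 0 and 3 above. The 2 probe sets with the lowest signals gave -1.56 ± 0.48 and -1.23 ± 0.37. Only the one with the highest signal passed with the block. In PRWT against GFP cells all 12 lay below 0, from -0.80 ± 0.51 to -0.12 ± 0.39. With the mean of all probe sets the PR2VR difference of MALAT1 was -0.50 (adjusted p with the block 0.51), and PR2VR minus PRWT was 0.02 in place of -0.98. In PR2VR minus PRWT 8 of the 12 lay above 0 and 4 below. Over the 44 genes with 2 usable probe sets the first and second gave the same sign in 27 for PR2VR against GFP (61.4%, against 59.4% of 6582 genes tested in all), in 23 for PRWT against GFP (52.3%, against 59.9%), in 22 for PR2VR against PRWT (50%, against 56.8%) and in 28 for both constructs against GFP (63.6%, against 60.8%).

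**Figure D4:**
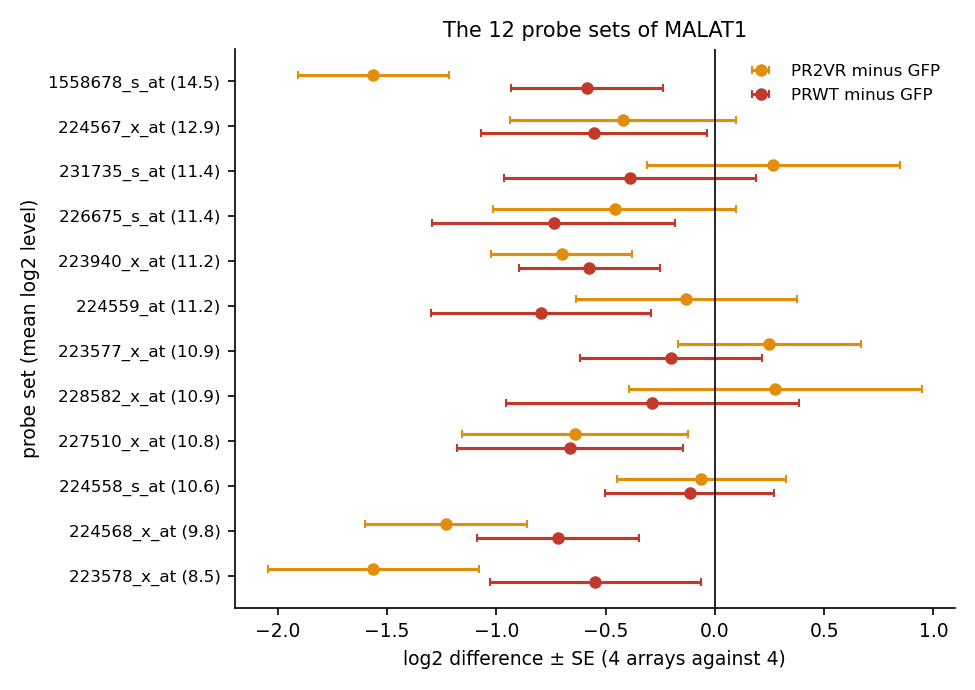
Log2 difference ± SE (horizontal axis, 4 arrays against 4) of each of the 12 MALAT1 probe sets (vertical axis, highest signal on top) for PR2VR minus GFP and PRWT minus GFP. The PR2VR values spread from -1.56 to 0.28 and the PRWT values from -0.80 to -0.12.

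LINC01569 and LINC00528 completed the 5 genes. LINC01569 had signals of 409, 475, 48.5 and 53.7 in PRWT cells and 83.0, 41.2, 270 and 281 in PR2VR cells, against 592, 508, 722 and 510 in GFP cells. Every fusion array lay below every GFP array, but PRWT was lowest at 9 h and PR2VR at 6 h. Apart from the 722 of GFP 9 h number 1, no LINC01569 signal exceeded 616.0, the highest reading of a bacterial control. The log2 difference was -1.54 ± 0.33 (adjusted p = 0.37, and 0.069 with the block), below 0 in 4 of 4 sets. It was -1.42 ± 0.39 in PRWT and -1.65 ± 0.39 in PR2VR cells, and the neighbour TFAP4, a transcription factor gene, differed by 0.01 ± 0.37.

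LINC00528 had 471, 337, 730 and 623 in PRWT cells and 1115, 568, 914 and 442 in PR2VR cells, against 1084, 628, 1431 and 1801 in GFP cells. The groups overlapped. The log2 difference was -0.86 ± 0.31 for both constructs (adjusted p = 1.0) and -1.06 ± 0.36 in PRWT cells. Its neighbours BID, which encodes a pro-apoptotic protein, and MICAL3 differed by -0.13 ± 0.31 and 0.29 ± 0.39.

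In all, 2 of the 303 genes had all fusion arrays above all GFP arrays (0.66%, against 0.229% of all genes tested), and 1 had them below (0.33%, against 0.251%). The second gene above was LINC00115, named because of this count, with a log2 difference of 0.66 ± 0.30 (adjusted p = 1.0). The median difference of the 303 genes was -0.10, against -0.02 over all genes tested, and among genes with a mean under 9 it was -0.11, against -0.08. With 1 array left out the median of the 303 ran from -0.22 (without GFP 9 h number 1) to 0.03 (without GFP 9 h number 2). Of the 303, 176 (58.1%) lay below 0, against 52.4% of all genes tested.

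**Figure D5:**
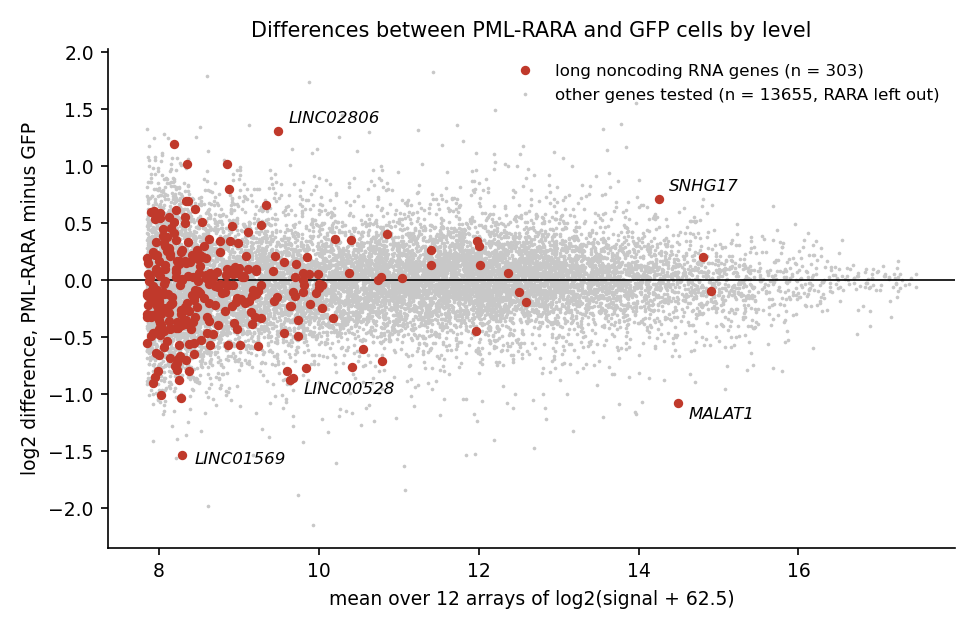
Log2 difference of PML-RARA (PRWT and PR2VR) minus GFP cells (vertical axis) against mean log2(signal + 62.5) (horizontal axis) for the 303 long noncoding RNA genes and for the other genes tested, with RARA left out. The differences of the long noncoding RNA genes run from -1.54 (LINC01569) to 1.31 (LINC02806).

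None of the long noncoding RNAs that the rule takes by name, MALAT1 aside, differed by an amount that passed in any fit. GAS5, whose RNA binds the glucocorticoid receptor, had 338.5, 396.3, 311.4 and 362.5 in PRWT cells, 343.5, 462.5, 420.8 and 555.9 in PR2VR cells, and 421.4, 298.6, 549.5 and 378.1 in GFP cells, a difference of -0.03 ± 0.30. CYTOR, an RNA raised in many tumours, differed by -0.03 ± 0.47, and its PRWT 6 h number 2 array read 19.5 where the other 11 read 234.2 to 820.6. The sign of these 2 differences turned under other scalings (0.02 for GAS5 and 0.002 for CYTOR after quantile normalization). MEG3, an imprinted RNA with growth-suppressing activity, differed by -0.64 ± 0.46, with the 2 lowest values on PR2VR number 1 arrays (57.1 at 6 h and 52.9 at 9 h). DANCR, which keeps epidermal progenitors undifferentiated, differed by 0.40 ± 0.34. With 1 array left out DANCR ran from 0.17 (without PRWT 9 h number 1) to 0.63 (without PRWT 9 h number 2) and MEG3 from -0.89 (without GFP 6 h number 2) to -0.40 (without GFP 6 h number 1), and with the mean of all probe sets MEG3 was at -0.08. All 4 had an adjusted p of 1.0 without the block and of 0.75 to 0.99 with it.

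Each construct was then set against the same 4 GFP arrays, so the 2 comparisons share their controls. In PRWT against GFP cells none of the 303 passed with or without the block, against 0.00716% of all genes tested in both fits, and 4 were higher and 2 lower at an unadjusted p under 0.05 (1.32% and 0.66%, against 0.874% and 1.19% of all), and with the block 7 and 8 (2.31% and 2.64%, against 2.42% and 3.02%). In PR2VR against GFP cells none passed without the block, and 2, LINC02806 and MALAT1, passed with it, against 41 of all genes tested, 0.294%. At an unadjusted p under 0.05, 5 were higher and 11 lower (1.65% and 3.63%, against 2.04% and 1.91% of all), and with the block 6 and 24 (1.98% and 7.92%, against 5.6% and 5.47%).

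The genes with the smallest p in these comparisons were largely those already described. LINC01723 entered with PRWT, with 365.3, 609.4, 589.6 and 697.9 in PRWT cells, against 59.0, 68.1, 621.7 and 958.7 in GFP cells. The PRWT arrays exceeded GFP at 6 h only, and the log2 difference over both times was 0.92 ± 0.39 (adjusted p = 1.0). LINC01111 entered with PR2VR, with 44.8, 100.5, 87.5 and 407.8 in PR2VR cells, against 252.7, 285.3, 617.7 and 523.4 in GFP cells, a difference of -1.29 ± 0.47 (adjusted p = 1.0). The 9 h number 2 array of PR2VR overlapped the GFP arrays. Apart from the 617.7 of GFP 9 h number 1, these LINC01111 signals lie within the range of the bacterial controls.

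All 4 PR2VR arrays lay above all GFP arrays for 4 genes (1.32%, against 1.48% of all) and below them for 7 (2.31%, against 1.16%), and the corresponding counts for PRWT were 3 (0.99%, against 0.817%) and 1 (0.33%, against 0.831%). The median difference of the 303 was -0.03 in PRWT and -0.11 in PR2VR cells, against 0.004 and -0.03 over all genes tested. In PRWT cells 166 (54.8%, against 49.4% of all) lay below 0, and in PR2VR cells 181 (59.7%, against 53.1%). Among genes with a mean under 9 the PRWT median was -0.05 for kept genes and -0.02 for all. The PR2VR medians of such genes were -0.12 and -0.10. With 1 array left out the PR2VR median of the 303 ran from -0.29 (without GFP 9 h number 1) to 0.05 (without PR2VR 9 h number 1). Their PRWT median ran from -0.17 to 0.07. The 7 included the host genes SNHG28 and SNHG4, at differences of -1.28 and -0.60, whose levels lie within the range of the bacterial controls. SNHG19 was among the 3 above in PRWT cells, at 0.49. These 3 host genes were named after their values were seen.

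PR2VR and PRWT cells were compared directly to ask whether the 2 fusion constructs differed. None of the 303 and none of the 13959 genes tested passed, with or without the block (0% in both). At an unadjusted p under 0.05, 1 was higher and 6 lower (0.33% and 1.98%, against 0.587% and 0.96% of all), and with the block 6 and 16 (1.98% and 5.28%, against 3.22% and 3.63%). The 5 with the smallest p were all lower in PR2VR cells.

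Among them MALAT1 differed by -0.98 ± 0.34 (adjusted p = 1.0), below 0 in 4 of 4 sets, from its probe set with the highest signal. With the mean of all its probe sets it was 0.02, and 8 of the 12 lay above 0. LINC00905 had 194.8, 17.5, 34.2 and 313.0 in PR2VR cells, against 393.9, 218.4, 401.7 and 702.2 in PRWT cells, and differed by -1.48 ± 0.56. LINC01119 had 284.6, 309.4, 349.6 and 620.2 in PR2VR cells, against 577.8, 518.1, 1150 and 720.7 in PRWT cells, and differed by -0.82 ± 0.34. Both overlapped by a single PR2VR array, the 9 h number 2. LINC00473, an RNA induced by cyclic AMP, had 241.2, 217.8, 165.7 and 36.2 in PR2VR cells, against 382.5, 396.7, 229.4 and 455.8 in PRWT cells, a difference of -1.003 ± 0.44. LINC02961 had 50.9, 103.2, 163.8 and 77.1 in PR2VR cells, against 259.3, 294.9, 272.9 and 179.0 in PRWT cells, a difference of -0.99 ± 0.44. It was the only gene of the 303 with all PR2VR arrays below all PRWT arrays (0.33%, against 0.53% of all), and 2 lay above (0.66%, against 0.501%), LINC01252 and LINC02708, named for this count. The signals given here for LINC00473 and LINC02961 all lie within the range of the bacterial controls.

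The last average comparison was 9 h against 6 h over the 3 constructs. None of the 303 passed, against 11 of all genes tested, 0.0788%, and with the set as a random block 0 of all genes passed. At an unadjusted p under 0.05, 48 of the 303 were higher at 9 h (15.8%, against 10.1% of all) and 8 lower (2.64%, against 5.02%). With the random block these counts were 15 and 4 (4.95% and 1.32%, against 3.41% and 2.08%). All 9 h arrays lay above all 6 h arrays for 6 (1.98%, against 1.25%) and below them for 1, LINC01128 (0.33%, against 0.666%), whose log2 difference was -0.84. The median difference was 0.35, against 0.13 over all genes tested, and 229 of 303 lay above 0 (75.6%, against 60.6%). Among genes with a mean under 9 the medians were 0.42 for kept genes and 0.39 for all. Without the 3 arrays of 9 h number 2 the median of the 303 was 0.11, and after quantile normalization 0.09, and the part of those arrays' other properties in it was not tested.

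LINC02256 came nearest to the threshold. Its lowest, median and highest signals were 1884, 2863 and 4240 at 9 h, against 598, 1001 and 1962 at 6 h. The times overlapped by the GFP 6 h number 1 array. The log2 difference was 1.54 ± 0.27 (adjusted p = 0.060, and 0.67 with the random block), and it was 1.72 in PRWT, 1.39 in PR2VR and 1.52 in GFP cells. From the number 1 arrays of 9 h alone, whose GAPDH ratio was higher than on most 6 h arrays, it was 1.84, 1.62 and 1.57. Without PR2VR 6 h number 2 LINC02256 passed (1.65, adjusted p = 0.041). Its probe set ends in _x_at and can detect related transcripts, and the neighbouring GOLGA8N, a golgin family gene, differed by -0.39 ± 0.25 between the times (adjusted p = 0.47).

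DANCR was the one of the 5 that was lower at 9 h. In PRWT cells it had 1337 and 327 at 9 h, against 3832 and 6008 at 6 h. In PR2VR cells it had 1817 and 2077 at 9 h, against 2682 and 2064 at 6 h, and in GFP cells 893 and 774 at 9 h, against 1934 and 3498 at 6 h. Both 9 h values lay below both 6 h values in PRWT and in GFP cells, and the times overlapped in PR2VR cells. The log2 difference was -1.52 ± 0.32 over all constructs (adjusted p = 0.11, and 0.86 with the random block), and -2.72 in PRWT, -0.27 in PR2VR and -1.58 in GFP cells. Its neighbour USP46, a deubiquitinase gene, differed by -0.07 ± 0.28 between the times (adjusted p = 0.92).

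LINC00656, LINC01676 and LINC00410 were higher at 9 h by 1.57 ± 0.40, 1.23 ± 0.31 and 1.42 ± 0.37 (adjusted p = 0.18 each). LINC00656 had a lowest, median and highest signal of 250, 475 and 545 at 9 h, against 54.9, 58.8 and 317 at 6 h. These LINC00656 signals all lie within the range of the bacterial controls. LINC01676 had 460, 880 and 1208 at 9 h, against 215, 291 and 719 at 6 h, and LINC00410 had 253, 501 and 853 at 9 h, against 105, 141 and 257 at 6 h. The times overlapped in all 3, and LINC00410 is one of the 66 genes highest on the 9 h number 2 arrays. MALAT1 differed by -0.68 ± 0.28, CYTOR by 0.71 ± 0.44, MEG3 by 0.57 ± 0.44 and GAS5 by 0.15 ± 0.28 (adjusted p = 0.30, 0.45, 0.54 and 0.82), and the GAS5 difference was -0.20 after quantile normalization. With 1 array left out CYTOR ran from 0.27 (without PRWT 6 h number 2) to 1.15 (without PRWT 6 h number 1) and MEG3 from 0.25 (without PR2VR 9 h number 2) to 0.88 (without PR2VR 9 h number 1). From the number 1 arrays of 9 h alone MALAT1 differed by -0.06 in PRWT, -0.15 in PR2VR and -0.68 in GFP cells.

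Whether the effect of PML-RARA changed with time was tested as the difference between the 2 effects. No gene passed, among the 303 or among all genes tested (0%), and at an unadjusted p under 0.05 there were 1 higher and 6 lower genes of the 303 (0.33% and 1.98%, against 0.143% and 0.616% of all). The 3 with the smallest p were LINC01723 (-2.30 ± 0.67), LINC01653 (-2.11 ± 0.87) and LINC01963 (-2.03 ± 0.85), with an adjusted p of 1.0 each. At 6 h in GFP cells LINC01723 had 59.0 and 68.1, LINC01653 had 67.3 and 156.8, and LINC01963 had 66.7 and 314.0. All 6 values lie in the range of the bacterial controls.

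The proteins that work with these RNAs were measured alongside, from lists of genes chosen by role. Of 10 tested genes for proteins of small nucleolar ribonucleoproteins none passed in any of the 5 average comparisons, with or without the block. The same held for 6 genes of nonsense-mediated decay, 10 of paraspeckles, the bodies built on NEAT1, and 8 of nuclear speckles, where MALAT1 resides. The background for these calls is the one given above for each comparison.

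In fusion against GFP cells 6 of the 10 small nucleolar ribonucleoprotein genes lay above 0 (median 0.01), against 47.6% of all genes tested, with GAR1 at -0.41 ± 0.30, RUVBL2 at 0.24 ± 0.27 and SNU13 at 0.23 ± 0.32. Of the decay factors 3 of 6 lay above 0 (median 0.002), with UPF2 at 0.39 ± 0.27, SMG6 at -0.36 ± 0.46 and SMG8 at 0.16 ± 0.22. The median over all genes tested was -0.02. Of the paraspeckle genes 7 of 10 lay above 0 (median 0.03), with RBM14 at 0.48 ± 0.37, PSPC1 at -0.56 ± 0.45 and HNRNPH3 at 0.33 ± 0.28. Of the nuclear speckle genes 6 of 8 lay above 0 (median 0.06), with the splicing factors SRSF7 at 0.24 ± 0.22, SRSF3 at 0.17 ± 0.22 and SRSF6 at 0.15 ± 0.30.

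The other comparisons, which share arrays with each other, gave the following counts in the order small nucleolar ribonucleoprotein, decay, paraspeckle and nuclear speckle genes. In PRWT against GFP cells 10 of 10, 5 of 6, 8 of 10 and 8 of 8 lay above 0 (50.6% of all genes tested). In PR2VR against GFP cells 4 of 10, 2 of 6, 4 of 10 and 6 of 8 did (46.9% of all). In PR2VR against PRWT cells 8 of 10, 4 of 6, 10 of 10 and 7 of 8 lay below 0 (51.3% of all), with medians of -0.23, -0.18, -0.23 and -0.16. The median there was -0.01 over all genes tested and 0.008 over those with a mean of 10 or more. The median standard error over all genes tested was 0.38. Genes of a list share the same arrays, and the lists were not tested as sets. At 9 h against 6 h 5 of 10, 3 of 6, 6 of 10 and 7 of 8 lay below 0 (39.4% of all). The nuclear speckle genes, whose median level was 14.6, had a median difference of -0.41. It was 0.13 over all genes tested and 0.001 over those with a mean of 10 or more. Of the latter, 10.83% lay below the other 9 arrays on all 3 of the 9 h number 2 arrays, and 5.71% lay above.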

How the data were processed

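RNA of U937 cells was measured on 12 Affymetrix arrays, in 6 groups of 2. Trizol was used for total RNA, and biotinylated cRNA was hybridised, per the labels' protocols. The deposited intensity values are linear MAS5 signals per the submitters' processing notes, with no MAS5 version named. They run from 0.5 to 289408.3 over 54675 probe sets, and the mean of each array after trimming 2% at each end was 1499.8, so the authors' scaling was kept. No detection calls entered, and no genome build is named by the labels or the file. The number of arrays limits the precision.

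Of 54613 probe sets other than controls, the platform annotation pairs 41091 with 1 symbol, 1801 with more than 1 and 11721 with none used here, and 41037 were matched by Entrez number to RefSeq, which changed 0 symbols. Differences are on the scale log2(signal + 62.5), with the offset at the 20th percentile of the signals, so differences of genes with low signal are understated. The probe set with the highest mean stood for a gene, and 13959 genes at or above the 40th percentile of probe sets (7.85) were tested.

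Differences were fitted over all genes with limma 3.58.1 (R 4.3.3): a mean for each group, a variance trend and 6 residual degrees of freedom. P-values were adjusted by Benjamini-Hochberg over 13959 genes, a gene passed where it was under 0.05, and errors are standard errors of the log2 difference. Probe sets were adjusted over probe sets in a fit of their own. The titles number the arrays but state no pairing of arrays of different constructs. Correlations of deviations from the group means were above 0 in all 6 pairs of constructs at a time. They were 0.15 to 0.36 at 6 h and 0.56 to 0.63 at 9 h, where the number 2 arrays stood apart. The fit with the 4 sets of time and number as a block, on 4 residual degrees of freedom, was therefore run beside the first, and for 9 h against 6 h as a random block (correlation 0.41). The fits of fusion against GFP cells were also run on simulated normal values with known changes. No simulated set stood apart as the 9 h number 2 arrays did, so that case was not tested. Alternatives were other offsets, filters, normalizations and probe set rules, no variance trend, and leaving out arrays.

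Members and gene lists were chosen with earlier results of these data known. The text names the 5 genes with the smallest p in each average comparison and 3 in the test of the difference between times, the genes taken by name, the kept SNHG genes, the 3 LINC genes with the highest and the 3 with the lowest kept level, up to 3 genes per list of partner proteins, and protein-coding neighbours in the RefSeq gene table (GRCh38). Promoter windows are RefSeq's. Python 3.11.15 with pandas 2.3.3 was used for tables.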

Additional observations from a re-analysis of the deposited data

How the results depend on the processing

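Without a block no long noncoding RNA gene passed in any setting for PML-RARA, PRWT or PR2VR against GFP or for PR2VR against PRWT, and for 9 h against 6 h leaving out 1 array gave 0 to 1, the 1 being LINC02256 without PR2VR 6 h number 2. With the replicate block, which treats arrays of the same time and number as a set, 1 passed for PML-RARA and 2 for PR2VR against GFP. The block with quantile normalization gave 1 and 2, and with the mean of all probe sets 1 and 1, there LINC01569 (-1.54 and -1.65, adjusted p = 0.031 and 0.048). The block with 1 array left out gave 0 to 6 for PML-RARA against GFP, 0 to 8 for PR2VR against GFP and 0 to 5 for PML-RARA against GFP at 6 h, where only the omission of PR2VR 6 h number 1 (4, 3 and 0) or number 2 (6, 8 and 5) gave any. The block changed no other call.

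The median over the genes at 9 h minus 6 h was 0.35, and 0.088 after quantile normalization, 0.199 with arrays centred and 0.115 without the 9 h number 2 arrays. With 1 array left out it ran from 0.262 to 0.479, that of PML-RARA minus GFP from -0.224 to 0.028, that of PRWT minus GFP from -0.169 to 0.071, that of PR2VR minus GFP from -0.285 to 0.049, and that of PR2VR minus PRWT from -0.211 to 0.052. The cause was not tested.

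Of 1342 pairs of a named gene's difference and a setting, 1286 kept direction and call, 24 newly passed and 32 turned direction, in 4 of 36 differences. GAS5 in PML-RARA against GFP was 0.024 after quantile normalization, with the block as well, and 0.004 with arrays centred, and ran from -0.150 to 0.087 with 1 array left out (-0.218 to 0.154 with the block, the omissions that turned it giving 0.029, 0.031, 0.145 and 0.154). GAS5 at 9 h minus 6 h was -0.20 after quantile normalization and -0.002 with arrays centred. CYTOR in PML-RARA against GFP was 0.031 with 4 times the offset, 0.002 after quantile normalization, 0.005 with arrays centred and 0.281 without the 9 h number 2 arrays, and ran from -0.370 to 0.308 with 1 array left out (-0.343 to 0.281 with the block, those that turned it giving 0.14, 0.161, 0.176, 0.264 and 0.281). MALAT1 in PR2VR minus PRWT was 0.016 with the mean of all probe sets, with or without the block.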
